A study of Mus musculus with 2 samples.

Results

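The genes of oxidative phosphorylation were followed in single-cell RNA sequencing of limb muscle mononuclear cells from aged C57BL/6 mice that received dimethyl sulfoxide (DMSO, the vehicle) or Maraviroc (MVC), a small-molecule drug. A gene was a member when its symbol named a subunit of complex I (Nduf a, b, c, s and v genes), complex III (Uqcr genes), complex IV (Cox4 to Cox8 genes) or complex V (Atp5 genes), or a protein-coding gene of the mitochondrial genome. This rule used names only and found 92 members among 32285 genes, of which 79 were nuclear and 13 mitochondrial. The nuclear members comprised 36 genes of complex I, 8 of complex III, 18 of complex IV and 17 of complex V, and the mitochondrial members comprised 7, 1, 3 and 2 genes of the same complexes. No UMI (unique molecular identifier, 1 tagged RNA molecule) was counted for the testis isoforms Cox7b2 and Cox8c, so 90 members were detected, and the members together held 2.48% of the UMIs of the kept cells.

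Oxidative phosphorylation passes electrons from nutrients through complexes I to IV of the inner mitochondrial membrane to oxygen, and the proton gradient that builds up drives ATP synthase, complex V. The subunits are encoded in part by the nucleus and in part by the mitochondrial genome, whose genes are transcribed as long polycistronic RNAs and then cut apart. Several nuclear subunits exist as isoforms that differ between tissues, and heart and skeletal muscle have their own isoforms of complex IV.

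There was 1 library per treatment, the mice were injected intraperitoneally every other day, and dead cells were removed by a viability sort before capture. Lysis of red blood cells is described in the study's methods only in the section on human muscle. How many mice each library pools, and their exact ages, are not given in the labels, and the treatment and the library cannot be told apart. All intervals below are therefore exact 95% intervals that cover counting error only, no p-value is given, and each level is a share of UMIs or a CPM (UMIs of a gene per 1000000 UMIs of the same cells). After removal of barcodes with fewer than 500 genes or more than 10% mitochondrial UMIs, 5437 DMSO and 5454 MVC cells remained, with medians of 5802 and 5195 UMIs. These cells were grouped by their expression into 25 clusters and named from fixed marker genes, as endothelial-like (EC-like, 2219 DMSO and 1893 MVC cells), fibro-adipogenic progenitor-like (FAP-like, 1170 and 1421), tenocyte-like (467 and 531), pericyte-like (250 and 237), macrophage-like (152 and 210), B cell-like (206 and 106) and muscle stem cell-like (MuSC-like, 145 and 256) classes, which had enough cells for a comparison of the treatments, and 6 smaller classes used for levels only, the smooth muscle-like (SMC-like, 106 and 96), T/NK-like, Schwann-like, perineurial-like and lymphatic EC-like classes and a cluster with both smooth muscle and pericyte markers. The largest part of the EC-like class was a cluster led by Cldn5, Slc1a1 and Id1 in DMSO (981 cells) and a cluster led by Depp1, Rassf9 and Ablim3 in MVC (590 cells). In the FAP-like class the largest cluster was led by C7, Ighm and Gdf10, with the immune genes Ifi205, Ifi203 and Ptx3, in DMSO (476 cells) and by Cxcl14, Grm8 and Mme in MVC (662 cells).

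Among the 13 classes with enough cells for levels, SMC-like and T/NK-like cells gave the largest part of their UMIs to the nuclear members, and SMC-like cells the largest part to the mitochondrial members. In DMSO the nuclear members took 0.864% of the UMIs of T/NK-like cells (interval 0.850 to 0.878%) and 0.857% of those of SMC-like cells (0.839 to 0.874%), and these intervals overlapped. In MVC the SMC-like share was 0.939% (0.919 to 0.959%) and the T/NK-like share 0.769% (0.746 to 0.794%). B cell-like cells (0.794% in DMSO and 0.731% in MVC) and macrophage-like cells (0.744% and 0.746%) followed, in an order that differed between the libraries. The lowest nuclear shares among the 13 classes were those of tenocyte-like cells in DMSO (0.516%, 0.509 to 0.522%) and of EC-like cells in MVC (0.506%, 0.501 to 0.511%). FAP-like cells were close to them, with 0.526% in DMSO and 0.574% in MVC. The nuclear share of all kept cells was 0.595% in DMSO and 0.603% in MVC. With a limit of 5% mitochondrial UMIs, SMC-like cells of DMSO held 0.702%, below T/NK-like (0.866%), B cell-like (0.798%) and macrophage-like cells (0.747%). In MVC, T/NK-like cells held 0.775% and SMC-like cells 0.766% with this limit. In T/NK-like cells of DMSO, 3 cells held 14.2% of the nuclear member UMIs. Without the 3 richest cells of each class, the DMSO share was 0.793% in T/NK-like and 0.823% in SMC-like cells.

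The mitochondrial members took 3.62% of the UMIs of SMC-like cells in DMSO and 3.32% in MVC, above the other 12 classes in both libraries. MuSC-like cells came next in DMSO with 2.66%, and B cell-like cells in MVC with 2.93%. The lowest shares among the 13 classes were 1.53% in FAP-like cells of DMSO and 1.47% in lymphatic EC-like cells of MVC. The SMC-like lead depended on the limit for mitochondrial UMIs. With a limit of 5%, the SMC-like mitochondrial share was 2.21% in DMSO and 2.30% in MVC, and MuSC-like cells of DMSO (2.53%) and B cell-like cells of MVC (2.80%) stood highest. Called doublets made up 42.1% of the SMC-like cells, and without them the share was 5.32% in DMSO and 4.05% in MVC.

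**Figure D1:**
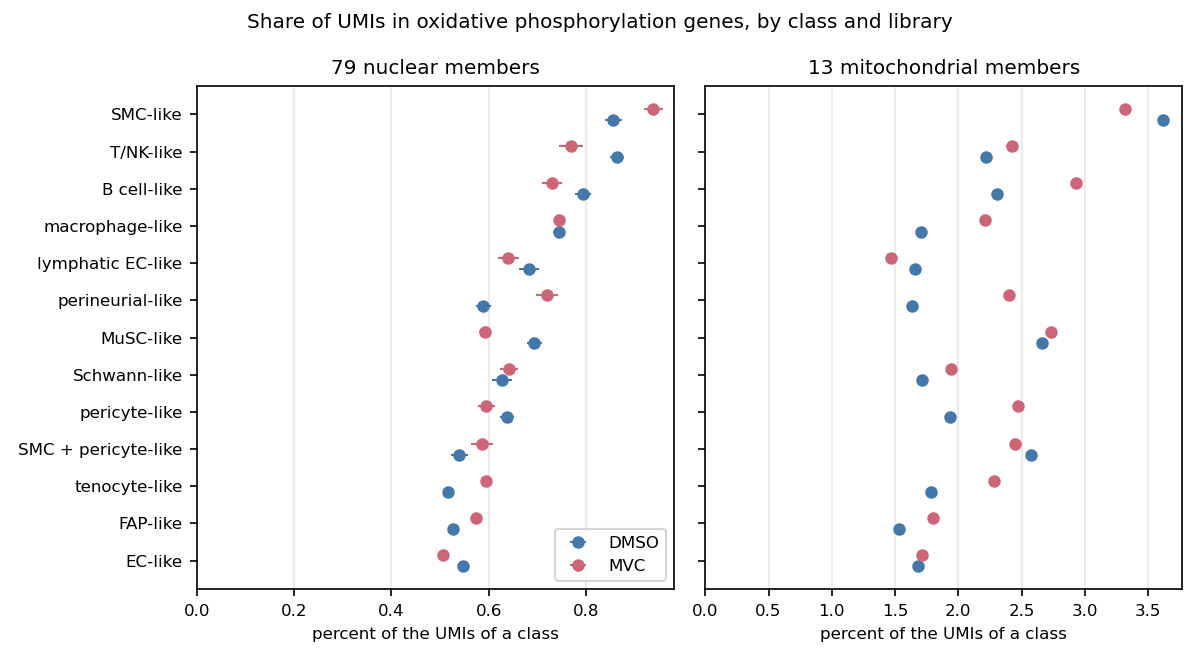
Percent of the UMIs of each class (x axis) held by the nuclear members (left) and by the mitochondrial members (right), in 13 classes (rows) and 2 libraries (colours), with exact 95% binomial intervals. SMC-like cells stand farthest right for the mitochondrial members (3.62% and 3.32%) and beside T/NK-like cells for the nuclear members (0.857% against 0.864% in DMSO, 0.939% against 0.769% in MVC).

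The order of the classes recurred in part between the libraries. Over the 13 classes the nuclear share in DMSO correlated with that in MVC with a Pearson's r of 0.81 and a Spearman's rho of 0.79, and the mitochondrial share with r of 0.83 and rho of 0.85. Nuclear and mitochondrial shares went together less closely, with r of 0.56 in DMSO (rho 0.48) and 0.64 in MVC (rho 0.41). The classes share the library and its depth, so these values are descriptions. Of 76 nuclear members with enough UMIs, 32 had their highest level in the same class in both libraries, 14 of them in SMC-like cells and 6 in T/NK-like cells. EC-like cells held the lowest level in both libraries for 11 of the 76, and SMC-like cells held the highest level for 9 of the 13 mitochondrial members.

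Neutrophil-like, myofibre-like and unnamed cells were too few for the comparison but differed in level. The nuclear members held 7.59% of the UMIs of the 13 myofibre-like cells of DMSO and 6.29% of those of the 25 of MVC, while the mitochondrial members held 0.250% and 0.720%. Per nuclear UMI there were thus 0.0330 mitochondrial UMIs in DMSO and 0.114 in MVC in these cells, which carried markers of the contractile apparatus such as Acta1. In each library 3 myofibre-like cells held much of the signal, with 58.5% of the nuclear member UMIs of the class in DMSO and 44.9% in MVC. The unnamed cluster, with a median of 1196 UMIs and haemoglobin genes among its leading genes, was at the other end, with 11.9 mitochondrial UMIs per nuclear UMI in DMSO and 14.9 in MVC. Neutrophil-like cells were low in both, with nuclear shares of 0.341% and 0.409% and mitochondrial shares of 0.324% and 0.421%.

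Among nuclear members with at least 200 UMIs and a level above 0 in each of the 13 classes, the following were among the 5 with the widest range. Cox4i2, Cox6a2 and Cox8b had no UMI in at least 1 class, so their range could not be ranked, and they are described with the isoforms. Cox7a1, the heart and muscle isoform of the complex IV subunit 7a, spanned 5.48 on the log2 scale of CPM. It was highest in pericyte-like cells over both libraries together, at 17.5 CPM in DMSO and 23.2 CPM in MVC. Perineurial-like cells stood at 14.6 and 24.3 CPM, with wide counting intervals in both classes. Its lowest level over both libraries together was 0.447 CPM in T/NK-like cells, so the width of this range rests on very few UMIs. Ndufa4, encoded on chromosome 6 at chr6:11900292-11907497 (GRCm38, minus strand) and named for complex I although its protein is now placed in complex IV, spanned 3.75. It stood at 197 and 193 CPM in T/NK-like cells, at 199 and 138 CPM in B cell-like cells and at 9.23 and 21.9 CPM in pericyte-like cells. Atp5g2, which encodes subunit c of the ATP synthase rotor, ranged from 236 CPM in DMSO and 171 CPM in MVC in T/NK-like cells, and 173 and 172 CPM in B cell-like cells, down to 33.6 and 45.6 CPM in the cluster with smooth muscle and pericyte markers. Ndufa3, an accessory subunit of complex I, was highest in B cell-like cells, with 85.0 CPM in DMSO and 56.8 CPM in MVC, and lowest in perineurial-like cells pooled over both libraries, with 16.8 and 14.96 CPM.

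Isoform choice set the mural cells of the vessels apart. Cox4i2, the isoform of the complex IV subunit 4 known for its regulation by oxygen, lies on chromosome 2 at chr2:152754173-152765037 (GRCm38, plus strand), and the ubiquitous Cox4i1 on chromosome 8. Cox4i2 made up 50.2% of the Cox4i1 and Cox4i2 UMIs of pericyte-like cells in DMSO (242 of 482 UMIs, interval 45.7 to 54.8%) and 44.9% in MVC (137 of 305, 39.2 to 50.7%). It made up 20.04% in SMC-like cells of DMSO and 16.1% in those of MVC, and 11.6% and 8.94% in the cluster with smooth muscle and pericyte markers. In the remaining 10 classes the share was at most 1.72%, and in T/NK-like cells no Cox4i2 UMI stood beside 561 Cox4i1 UMIs in DMSO and 134 in MVC. The level of Cox4i2 in pericyte-like cells was 223 CPM in DMSO and 177 CPM in MVC, and the level of Cox4i1 was 221 and 217 CPM.

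The NDUFA4 pair also differed in these cells. Ndufa4l2, a paralogue of Ndufa4 known to be induced by hypoxia and not matched by the symbol rule, accounted for 98.2% of the UMIs of the pair in pericyte-like cells of DMSO (552 of 562) and for 94.7% in MVC (302 of 319). The share was 65.7% and 64.4% in SMC-like cells and 72.5% and 66.3% in the cluster with both marker sets. Tenocyte-like cells were intermediate, at 32.1% in DMSO (26.9 to 37.5%) and 41.6% in MVC (37.1 to 46.3%). FAP-like cells stood at 9.70% (8.01 to 11.6%) and 17.8% (15.9 to 19.8%), and their Ndufa4l2 level was 8.32 CPM in DMSO and 19.6 CPM in MVC. EC-like cells stood at 4.10% and 6.47%, and T/NK-like cells had no Ndufa4l2 UMI.

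**Figure D2:**
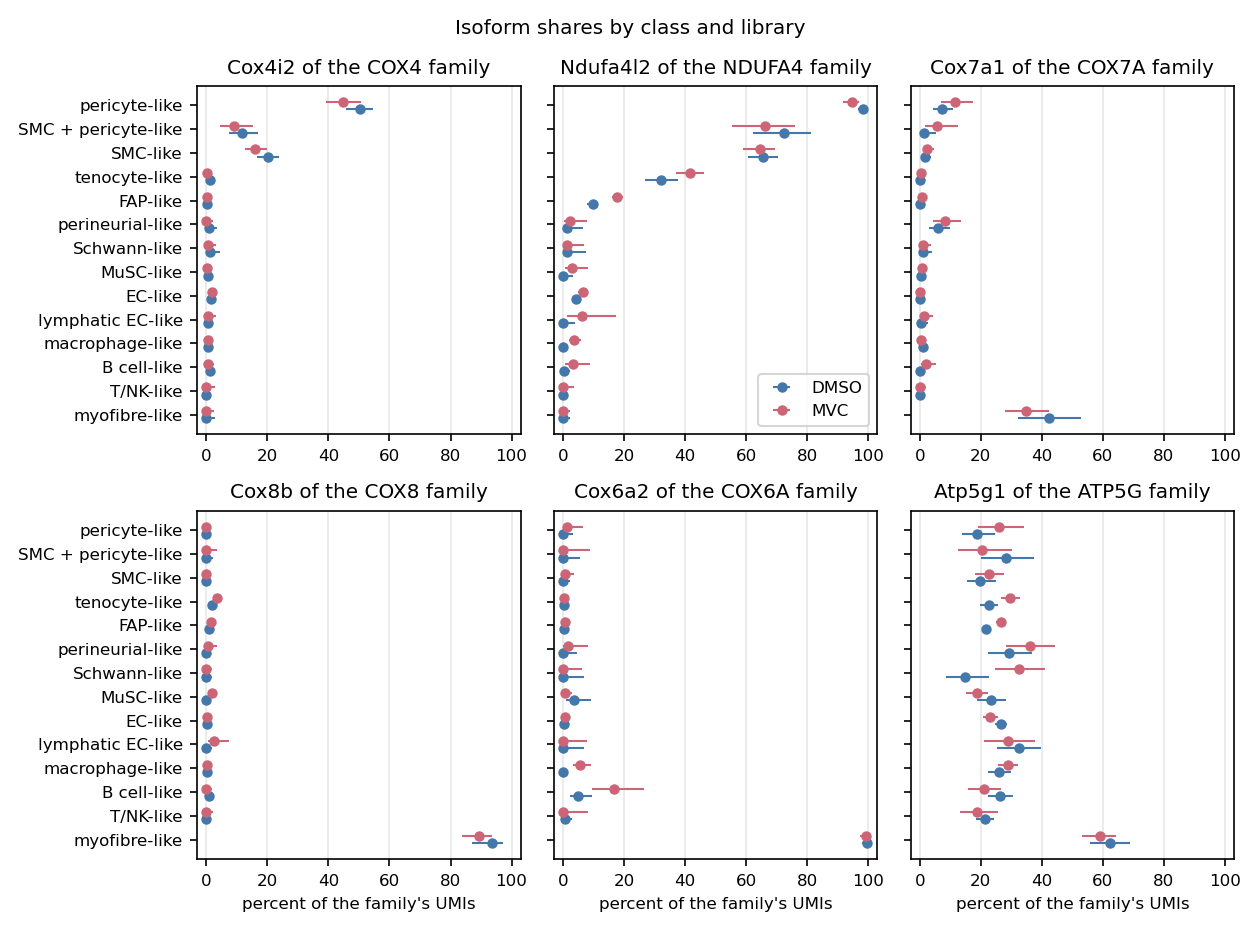
Percent of the UMIs of an isoform family (x axis) held by the isoform named above each panel, by class (y axis), in 2 libraries (colours) with exact 95% binomial intervals. Cox4i2 reaches 50.2% and 44.9% in pericyte-like cells and Cox8b 93.5% and 89.5% in myofibre-like cells.

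The muscle isoforms of complex IV marked the few myofibre-like cells, of which 3 held 58.5% of the nuclear member UMIs in DMSO and 3 held 44.9% in MVC. Cox8b held 93.5% of the COX8 UMIs there in DMSO (100 of 107) and 89.5% in MVC (153 of 171), and Cox6a2 held 99.6% and 99.3% of the COX6A UMIs. Cox7a1 held 42.3% of the COX7A UMIs in DMSO and 34.9% in MVC. The COX7A family counted Cox7a2l beside Cox7a1 and Cox7a2, so no COX7A share here sets Cox7a1 against Cox7a2 alone. Atp5g1 held 62.4% and 58.9% of the UMIs of the 3 genes for subunit c, against 14.7 to 36.1% in the 13 larger classes. Elsewhere Cox7a1 stood out in pericyte-like cells, with 7.22% in DMSO and 11.4% in MVC, and in perineurial-like cells, with 5.91% and 8.23%. The testis isoform Cox6b2 also held its largest shares in these 2 classes, the cluster with both marker sets aside, at 14.4% and 8.93% of the COX6B UMIs in pericyte-like cells and 13.9% and 16.9% in perineurial-like cells. Pericyte-like, SMC-like and Schwann-like cells had no Cox8b UMI. In FAP-like cells Cox8b was counted 20 times in DMSO and 53 times in MVC, a ratio of CPM of 2.48 (1.46 to 4.37), and in tenocyte-like cells 17 and 42 times, a ratio of 2.38 (1.32 to 4.45). The 11 myofibre markers summed to 29.9 CPM in DMSO and 37.1 CPM in MVC in FAP-like cells and to 21.3 and 34.0 CPM in tenocyte-like cells, and their part in these ratios was not tested. In macrophage-like cells Cox6a2 was counted 0 times in DMSO and 14 times in MVC, and in B cell-like cells 8 times in 2 cells and 14 times in 4 cells.

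The promoters of the COX8 pair are shown because the isoform share differed between myofibre-like and other cells and both genes had a promoter sequence. They are RefSeq sequences of GRCm38.p6 from 250 bases before to 50 bases after the gene start, read 5′ to 3′ on the strand of the gene, for Cox8a at chr19:7217567-7217866 (minus strand) and Cox8b at chr7:140900397-140900696 (minus strand). Capitals mark CTTCCGG, the opposite strand of the ETS letters CCGGAAG, in Cox8a, and CAGCTG, an E-box of the kind bound by myogenic factors, in Cox8b.
Cox8a: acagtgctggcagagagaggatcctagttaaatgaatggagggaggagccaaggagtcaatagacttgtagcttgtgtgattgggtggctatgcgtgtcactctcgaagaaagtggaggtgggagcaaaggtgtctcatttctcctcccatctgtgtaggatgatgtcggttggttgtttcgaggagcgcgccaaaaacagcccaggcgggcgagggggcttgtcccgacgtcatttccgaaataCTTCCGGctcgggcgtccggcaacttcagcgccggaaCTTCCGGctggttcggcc
Cox8b: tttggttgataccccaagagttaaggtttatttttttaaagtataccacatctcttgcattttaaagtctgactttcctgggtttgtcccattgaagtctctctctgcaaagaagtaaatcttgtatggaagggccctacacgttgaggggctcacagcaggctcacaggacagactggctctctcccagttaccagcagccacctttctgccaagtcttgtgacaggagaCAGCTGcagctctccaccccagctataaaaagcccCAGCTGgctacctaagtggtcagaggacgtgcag

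A promoter sequence was found for 64 of the 79 nuclear members. The ETS letters CCGGAAG stood on either strand in 14 of them (21.9%) and in 9.12% of all 27025 promoters, and the letters GCGCANGC of the NRF1 motif in 19 (29.7%) against 10.1%. CAGCTG was present in 6 (9.38%) against 16.1%, and GTGGGAA, the letters of the RBPJ motif, in 3 (4.69%) against 6.39%. These matches describe the letters in these windows only.

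Of the 13 mitochondrial members, 3 changed their proportion between the libraries in 1 direction in all 13 classes. mt-Co1, the catalytic subunit 1 of complex IV (mitochondrial genome, bases 5328 to 6872), made up 11.6% of the UMIs of the 13 mitochondrial members over all DMSO cells and 13.5% over all MVC cells, and its share was higher in MVC in 13 of 13 classes, by a factor of 1.07 to 1.29. mt-Nd3, a subunit of complex I (bases 9459 to 9806), went from 3.57% to 2.72% and was lower in 13 of 13 classes, with shares of 3.20 to 3.99% in DMSO and 2.07 to 3.05% in MVC, which did not overlap. mt-Atp8, a subunit of complex V (bases 7766 to 7969), went from 0.733% to 0.484% and was also lower in 13 of 13 classes, by a factor of 0.435 to 0.878. The classes come from the same pair of libraries and are not replicates, and these 3 genes were singled out after their values were seen. mt-Atp8 overlaps mt-Atp6 on the same strand, and mt-Nd3 and mt-Co1 share most of their 31-base words with other annotated genes, pseudogenes among them, as do mt-Nd4, mt-Nd4l, mt-Co2, mt-Co3 and mt-Atp6, so their counts depend on how such reads were assigned.

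The other 10 mitochondrial members kept their proportions more closely. The median factor over classes was between 0.934 and 1.01 for the complex I genes mt-Nd1, mt-Nd2, mt-Nd4, mt-Nd4l, mt-Nd5 and mt-Nd6, for mt-Cytb of complex III, for mt-Co2 and mt-Co3 of complex IV and for mt-Atp6 of complex V, and each of them moved up in some classes and down in others. The lowest factor among them was 0.599 for mt-Nd6, the gene encoded on the strand opposite to the others.

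**Figure D3:**
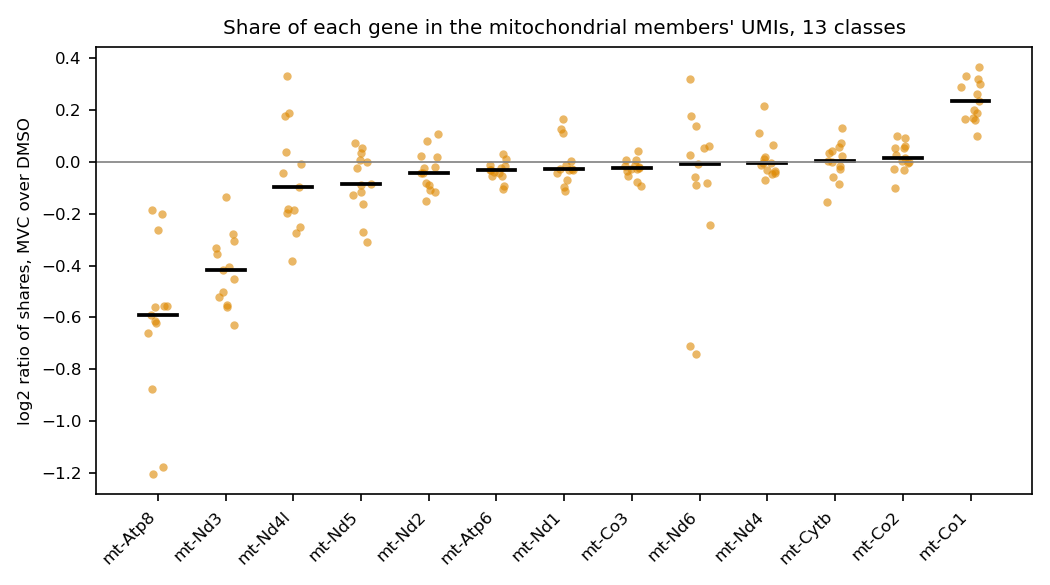
Log2 ratio, MVC over DMSO, of the share of each of the 13 mitochondrial members in their summed UMIs (y axis), 1 point per class, with black lines at the medians. The points of mt-Co1 all lie above 0 and those of mt-Nd3 and mt-Atp8 all lie below 0, while those of the other 10 genes lie on both sides.

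The comparison of MVC with DMSO asked which classes differed in their oxidative phosphorylation genes after MVC. A member was counted as higher or lower in MVC when its CPM was at least 25% above or at least 20% below that in DMSO, among genes with at least 50 UMIs in both libraries of the class together. Over all kept cells the nuclear members hardly differed, with a median log2 ratio of 0.07, as for all genes (0.06). Of 77 nuclear members 3 were higher, where 19.5% of all genes were, and 1 was lower, where 11.8% of all genes were. The 3 were Cox8b (3.77 and 7.55 CPM), Cox7a1 (2.71 and 4.11 CPM) and the accessory complex I subunit Ndufa11 (29.4 and 38.4 CPM), and the lower gene was Cox4i2 (11.5 and 7.83 CPM). Most of the 146 DMSO and 268 MVC UMIs of Cox8b came from the myofibre-like cells, 13 in DMSO and 25 in MVC. The part of these cells in the ratios of the muscle isoforms Cox8b and Cox7a1 was not tested. Of the 13 mitochondrial members mt-Co1 was higher (2058 and 2699 CPM) and mt-Atp8 lower (129.9 and 96.9 CPM), and the median log2 ratio was 0.14.

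Tenocyte-like cells had the highest pooled nuclear ratio of the 7 compared classes. The nuclear members went from 0.516% to 0.594% of the UMIs, a ratio of 1.15 (1.13 to 1.17), with a median log2 ratio of 0.26 against 0.04 for all genes. Of 73 members tested 27 were higher, or 37.0%, beside 22.5% of all genes, and 2 were lower, beside 14.4% of all genes. Complex I stood highest, with a pooled ratio of 1.24 (1.201 to 1.28) and 16 of 36 genes higher. Among them the accessory subunit Ndufb7 went from 16.0 to 29.6 CPM, a ratio of 1.85 (1.37 to 2.53), Ndufa11 from 23.9 to 43.7 CPM (1.83, 1.43 to 2.35) and Ndufa9 from 9.80 to 17.9 CPM (1.83, 1.24 to 2.74). The complex IV subunit Cox6b1 went from 58.1 to 87.8 CPM, a ratio of 1.51. The lower genes were Ndufa6, a LYR-motif subunit of complex I, at 102.5 and 76.0 CPM (0.742, 0.641 to 0.858), and Uqcrh, the hinge protein of complex III, at 203.8 and 161.5 CPM (0.792, 0.716 to 0.877). The mitochondrial members rose from 1.78% to 2.28%, with 7 of 13 higher and mt-Atp8 lower.

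Both clusters of tenocyte-like cells showed this shift. The median log2 ratio of the nuclear members was 0.33 in the cluster led by Col22a1, Spp1 and Thbs4 (all genes 0.05), with 39 of 72 higher beside 24.8% of all genes. It was 0.21 in the cluster led by Angptl7, Fmod and Wif1 (all genes 0.01), with 24 of 72 higher beside 22.0% of all genes. The mitochondrial members differed more between these clusters, with medians of 0.49 and 0.15. Genes of the dissociation response, an immediate early and heat shock list that marks handling of cells, had a median log2 ratio of 0.25 in tenocyte-like cells. Of these genes 5 of 18 were higher (27.8%), beside 22.5% of all genes, and their part in the shift was not tested.

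FAP-like cells moved in the same direction by less. The nuclear share was 0.526% in DMSO and 0.574% in MVC, a ratio of 1.09 (1.08 to 1.10). All 20 called members of 73 were higher and 0 were lower, but 29.3% of all genes were higher and 8.26% lower in this class, so the share of members called higher (27.4%) was not above that of all genes. The median log2 ratio was 0.19 for the members and 0.14 for all genes. Complex I gave 14 of the 20, or 38.9% of its 36 genes tested, beside 29.3% of all genes. Ndufa11 was the highest nuclear member of at least 100 UMIs at 28.5 and 41.8 CPM (1.47, 1.28 to 1.68). Ndufa6 was the lowest at 105.8 and 85.5 CPM (0.809, 0.747 to 0.875). The core subunit Ndufv2 went from 32.1 to 47.1 CPM (1.47) and Atp5g1 from 45.03 to 63.5 CPM (1.41). Within clusters the median was 0.30 in the one led by Cxcl14, Grm8 and Mme (all genes 0.16), with 32 of 72 higher beside 32.6% of all genes. It was 0.16 in the one led by C7, Ighm and Gdf10 (all genes 0.08), with 19 of 72 higher beside 22.0% of all genes, and 0.10 in the one led by Pi16, Sdk1 and Dmkn (all genes 0.08), with 11 of 72 higher beside 22.9% of all genes. The mitochondrial members rose from 1.53% to 1.802%, with a median log2 ratio of 0.23, and 2 of 13 were higher.

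EC-like cells moved the other way in the nuclear members. Their share was 0.548% in DMSO and 0.506% in MVC, a ratio of 0.923 (0.911 to 0.935), with a median log2 ratio of -0.09 against 0.06 for all genes. Few members passed the fold, with 2 of 73 higher where 23.5% of all genes were and 3 lower where 12.5% of all genes were. Atp5g1 was the lowest at 48.7 and 36.8 CPM (0.754, 0.650 to 0.873), followed by Atp5mpl (44.9 and 35.4 CPM) and Ndufa1 (57.7 and 45.8 CPM), and the higher genes were Ndufa9 at 10.6 and 14.3 CPM (1.35, 1.03 to 1.78) and Ndufs4 (33.7 and 42.8 CPM). The mitochondrial share was 1.68% and 1.71%, with a median log2 ratio of -0.01, mt-Co1 higher, and mt-Atp8 and mt-Nd3 lower.

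The shift of EC-like cells differed in size between clusters. The nuclear median was -0.34 in the cluster led by the venular adhesion genes Selp and Sele, where the median of all genes was -0.06, and 36 of 71 members were lower beside 26.4% of all genes. It was -0.23 in the cluster led by Trim69, Patl2 and Cxcl9 (all genes -0.03), with 21 of 63 lower beside 22.2%, and -0.15 in the one led by Depp1, Rassf9 and Ablim3 (all genes 0.08), with 15 of 72 lower beside 16.6%. It was -0.13 in the one led by Cytl1, Igf2 and St8sia6 (all genes 0.02), with 12 of 70 lower beside 15.1%. In the cluster led by Cldn5, Slc1a1 and Id1 it was -0.05 (all genes 0.0013), with 9 of 72 lower beside 18.4%. Haemoglobin genes were among the leading genes of this cluster and of a small cluster led by Hbb-bs, where 20 members could be tested and the median was -0.00234 (all genes -0.06). Cells with a haemoglobin UMI made up 8.36% and 9.88% of these 2 clusters and 5.26 to 13.1% of all 25. Without these 2 clusters, which left 1133 DMSO and 1333 MVC cells, the EC-like median was -0.18 (all genes 0.03). Of 73 members 18 were lower beside 16.0% of all genes, and 3 were higher beside 21.3%. Leaving out only the cells over 1% haemoglobin UMIs gave an EC-like median of -0.09. Summed haemoglobin was 2104 CPM in EC-like cells of DMSO and 1036 CPM in those of MVC.

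**Figure D4:**
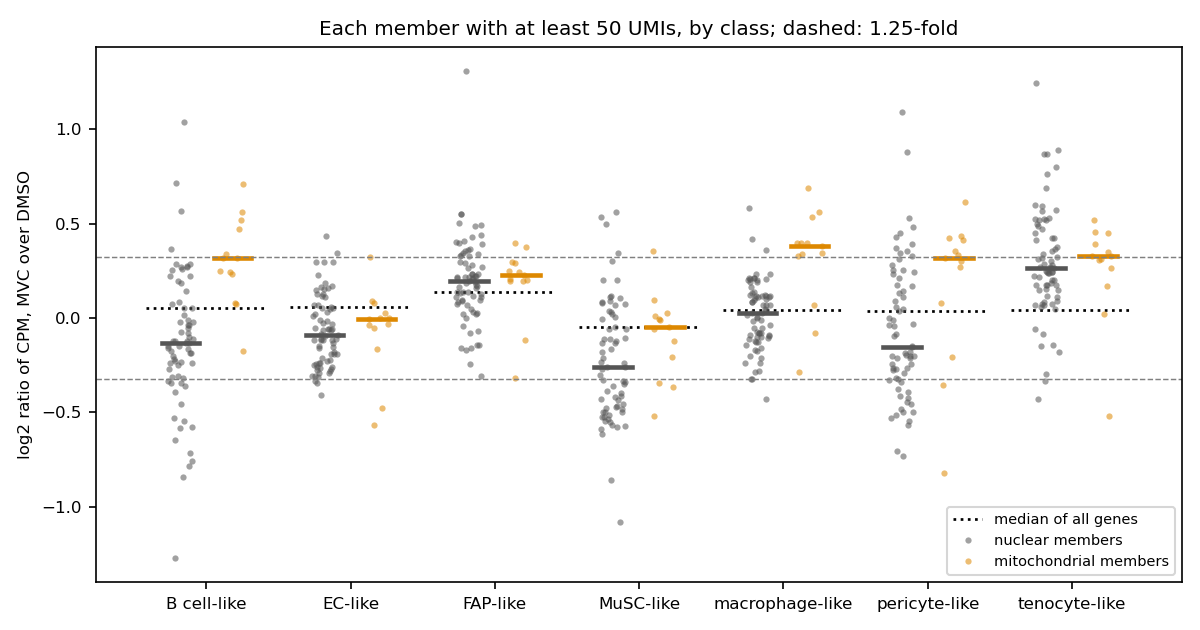
Log2 ratio of CPM, MVC over DMSO (y axis), of each member with at least 50 UMIs in 7 classes (x axis), by genome (colours), with the medians of the members and, dotted, of all genes, and dashed lines at 25% above and 20% below. The medians of tenocyte-like cells lie above 0 for both genomes (0.26 and 0.33), and the nuclear median is below 0 in EC-like (-0.09), B cell-like (-0.13), pericyte-like (-0.15) and MuSC-like cells (-0.26).

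In MuSC-like cells the summed counts were lower in MVC, and without 1 barcode the direction turned. The nuclear share was 0.694% in DMSO and 0.592% in MVC, with a median log2 ratio of -0.26 against -0.05 for all genes, and 32 of 70 members were lower (24.1% of all genes) and 4 higher (20.1% of all genes). A single DMSO cell carried 69122 UMIs, where the class median was 6764, and 1859 nuclear member UMIs, 24.4% of those of the whole class. This cell held 97 UMIs of Myog and 52 of Mymk, genes of differentiating myocytes that had 0 UMIs in the other DMSO cells of the class, together with 31 of Myod1, 328 of Acta1 and 0 of Pax7, and it was not called a doublet. Without it the DMSO share was 0.560%, the pooled ratio 1.06 (1.02 to 1.09) and the median log2 ratio 0.11, and 4 of 70 members were lower and 16 higher, where 22.0% and 21.8% of all genes were.

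The members most concentrated in this cell were Atp5c1, Uqcr11, Atp5k, Ndufa4 and Cox7b, of which it held 41.3 to 62.3% of the DMSO UMIs of the class. Uqcrfs1, the Rieske iron-sulfur protein of complex III, was the lowest nuclear member in MVC at 60.0 and 28.4 CPM (0.473, 0.323 to 0.691), and 17 of its 66 DMSO UMIs came from the same cell. Ndufa10 was the highest at 30.9 and 43.7 CPM (1.41, 0.935 to 2.18). The mitochondrial share was 2.66% in DMSO and 2.73% in MVC, with 1 of 13 higher and 3 lower, and without the cell the DMSO share was 2.53% and the median log2 ratio went from -0.05 to 0.06. The dissociation response genes were higher in MVC in this class, 12 of 18 beside 20.1% of all genes, with a median log2 ratio of 0.56. Their part in these values was not tested.

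**Figure D5:**
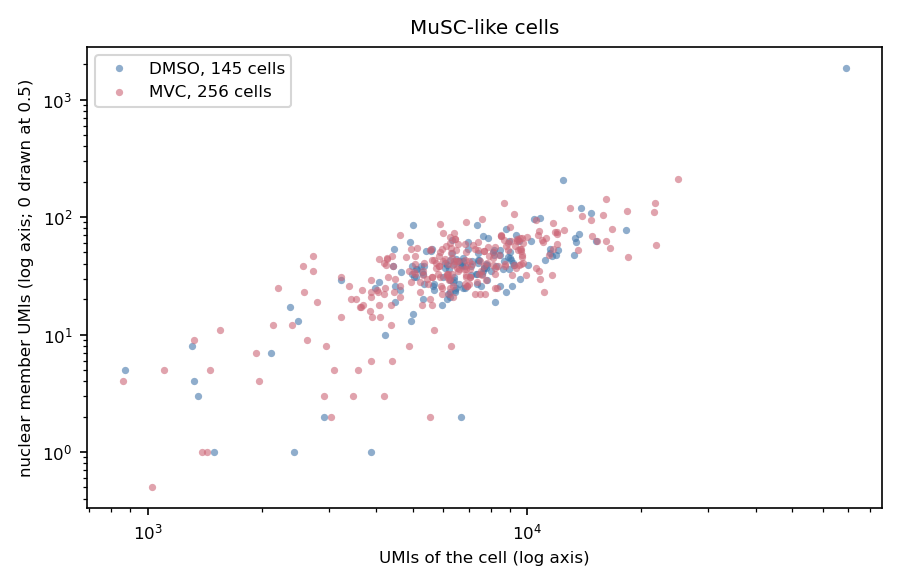
UMIs of each MuSC-like cell (x axis, log scale) against its UMIs in nuclear members (y axis, log scale, with 0 drawn at 0.5), in DMSO (145 cells) and MVC (256 cells). A single DMSO cell at 69122 and 1859 UMIs stands apart from the rest.

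In macrophage-like cells the mitochondrial members were higher in MVC, while the pooled nuclear share was nearly equal. The mitochondrial share went from 1.71% to 2.21%, a ratio of 1.296 (1.28 to 1.31), and 10 of 13 members were higher (22.5% of all genes) and 0 lower (15.8% of all genes). mt-Co1 went from 2362 to 3429 CPM (1.45, 1.40 to 1.51) and mt-Nd4l from 118 to 175 CPM (1.48). The nuclear share was 0.744% and 0.746%, a ratio of 1.002 (0.979 to 1.03), with 3 of 72 members higher and 3 lower. The dissociation response genes had a median log2 ratio of 0.22 in this class, with 6 of 18 higher, and their part in these values was not tested. The lowest was Ndufa7 at 123.7 and 91.8 CPM (0.742, 0.610 to 0.903), and the highest Ndufs1, the large iron-sulfur subunit of complex I, at 19.98 and 29.97 CPM (1.4998, 0.984 to 2.32).

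B cell-like and pericyte-like cells combined a lower nuclear share with a higher mitochondrial share. In B cell-like cells the nuclear share was 0.794% and 0.731% (ratio 0.920, 0.889 to 0.953) and the mitochondrial share 2.31% and 2.93% (1.27). Of 70 nuclear members 16 were lower, where 19.1% of all genes were lower, and 4 were higher, where 25.9% were. Among the 34 complex I genes tested, 12 were lower (35.3%). Ndufb9 stood at 87.6 and 50.8 CPM (0.581, 0.382 to 0.863) and Ndufa13 at 86.7 and 128.6 CPM (1.48, 1.10 to 1.99). Of the mitochondrial members 5 of 13 were higher, with mt-Co1 at 2726 and 4452 CPM. Of the 18 dissociation response genes 5 were higher and 8 lower in this class, and their part in these values was not tested.

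In pericyte-like cells the nuclear share was 0.638% and 0.595% (ratio 0.933, 0.899 to 0.969) and the mitochondrial share 1.93% and 2.47% (1.28). Of 70 nuclear members 18 were lower (19.3% of all genes) and 11 higher (23.9% of all genes), and 6 of 13 mitochondrial members were higher and 2 lower. Ndufb2 stood at 49.8 and 91.6 CPM (1.84, 1.27 to 2.67), Ndufb3 at 67.4 and 41.3 CPM (0.613, 0.391 to 0.940) and Cox4i2 at 223 and 177 CPM (0.791, 0.637 to 0.980). The median depth of this class was 3808 UMIs in DMSO and 2473 in MVC, and the median over its cells of the nuclear share was 0.632% and 0.383%. The dissociation response genes were lower in MVC here, 15 of 18 with a median log2 ratio of -0.60, and the part of either in these values was not tested.

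Of 80 members measured in all 7 classes, 8 (10.0%) lay on the same side of 1 in each, beside 7.29% of the 3732 genes measured there, and the classes share the same pair of libraries. Cox5b, Ndufa13, Ndufs3, mt-Co1 and mt-Co2 were above 1, and Uqcrh, Cox7c and Atp5l, small subunits of complexes III, IV and V, were below 1. The ratios of Uqcrh ranged from 0.792 in tenocyte-like to 0.959 in MuSC-like cells, those of Cox7c from 0.764 in MuSC-like to 0.901 in tenocyte-like cells and those of Atp5l from 0.825 in pericyte-like to 0.925 in B cell-like cells, so Uqcrh in tenocyte-like and Cox7c in MuSC-like cells alone passed the fold. Without the deep DMSO cell, the MuSC-like ratios of Uqcrh and Atp5l were 1.10 and 1.08, above 1, and that of Cox7c was 0.9497. Of the 3 genes Cox7c alone thus stayed below 1 in all 7 classes. Ndufs1, Atp5c1, mt-Atp6 and mt-Nd4 joined the members above 1. In this setting 10 of 80 members (12.5%) lay on 1 side, 9 above and 1 below, beside 7.56% of 3719 genes. mt-Co1 passed the fold in all 7 classes, from 1.2504 in EC-like to 1.63 in B cell-like cells.

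Neighbouring pathways were read from fixed lists. The genes Sdha, Sdhb, Sdhc and Sdhd were in both the citric acid cycle list and the list of respiratory chain genes outside the symbol rule. The counts of these lists therefore overlap. In tenocyte-like cells, where 22.5% of all genes were higher, 6 of 8 respiratory chain genes outside the symbol rule were higher and 0 lower. These were the succinate dehydrogenase subunits Sdhb (18.9 and 31.7 CPM), Sdhc and Sdhd, cytochrome c1 (Cyc1), Ndufab1 and Ndufa4l2, while Sdha stood at 40.4 and 38.1 CPM and cytochrome c (Cycs) at 61.4 and 74.0 CPM. In the same cells 8 of 17 citric acid cycle genes were higher and 0 lower, and 5 of 14 glycolysis genes were higher and 1 lower. In FAP-like cells 17 of 38 assembly factors were higher, beside 29.3% of all genes, and 0 lower. In B cell-like cells 7 of 10 glycolysis genes were higher, beside 25.9% of all genes, and 0 lower. In MuSC-like cells 9 of 15 citric acid cycle genes and 5 of 6 respiratory chain genes outside the rule were lower, beside 24.1% of all genes, with the single DMSO cell included. Of 15 genes of mitochondrial biogenesis and transcription, such as Tfam and Nrf1, 1 was higher and 0 lower over all cells, beside 19.5% and 11.8% of all genes. By class the counts varied, with 3 of 9 higher and 2 lower in MuSC-like cells and 0 of 6 higher or lower in macrophage-like cells.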

How the data were processed

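The authors aligned 2 10x libraries to mm10 with Cell Ranger 7.0.0 and analysed them with Seurat 5.0.1, per the submitters' processing notes, and deposited filtered matrices of raw UMI counts per gene and barcode. From these counts, barcodes with fewer than 500 genes (342 DMSO, 516 MVC) or over 10% mt- UMIs (33, 77) were removed, as in the study's methods, which left 5437 of 5812 and 5454 of 6047 barcodes, the cell numbers that the study states. Total UMIs were 39150511 and 36063575. The libraries shared 9 barcodes. Cells were scaled to 10000 UMIs, clustered on 2000 variable genes and 30 components (scikit-learn 1.9.0, igraph 0.11.9, leidenalg 0.10.2, resolution 1) and named from fixed markers. Names were rebuilt here and may differ from the study's. Simulated doublets marked 4.34% and 4.36% of the cells, which were kept.

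UMIs were summed per class and library. Shares have Clopper-Pearson, CPM exact Poisson and ratios conditional binomial intervals. Named were all mitochondrial members, the isoform families, the nuclear members with the highest and lowest ratio (at least 100 UMIs) of each class, and the 5 with the widest range, of which 1 is not reported here. Others were named after their values were seen. Members and lists were chosen with earlier results of these data known. Gene positions came from GENCODE M21, which matched 32158 identifiers. The ratio step was tested on simulated data. Alternatives changed the scaling, the mt- limit, doublets, depth, the UMI minimum, the fold and the clustering.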

Additional observations from a re-analysis of the deposited data

Results flagged for a closer look

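The direction of the nuclear members differed between classes. Their pooled ratio, MVC over DMSO, was 1.15 in tenocyte-like and 1.09 in FAP-like cells, and 0.923 in EC-like, 0.920 in B cell-like, 0.933 in pericyte-like and 0.853 in MuSC-like cells, the last with the single deep DMSO cell included. With 1 library per treatment the difference between classes was not tested.

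The removed barcodes held a signal of the mitochondrial members above that of the kept cells, which is in part what the limit removes. Mitochondrial members took 13.6% of the UMIs of the barcodes over the limit in DMSO and 14.98% in MVC. Barcodes with fewer than 500 genes, which the limit did not choose, held 8.05% in DMSO and 8.95% in MVC, against 1.77% and 2.004% in the kept cells. In the median barcode of this kind the share was 3.32% and 2.71%, and 21 and 33 barcodes held more than 50%. Their pooled nuclear shares were 0.790% in DMSO and 0.808% in MVC, and the median barcode had 0.843% and 0.302%.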

How the results depend on the processing

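No paired analysis was possible because each treatment had 1 library and the labels give no replicate numbers. Leaving out a replicate was not possible for the same reason. Of the 13 alternative settings, none changed the sign of the nuclear median in tenocyte-like (0.22 to 0.27), FAP-like (0.06 to 0.25) or EC-like cells (-0.15 to -0.03). The same held in B cell-like (-0.24 to -0.06) and pericyte-like cells (-0.34 to -0.12). Nor did the sign of the mitochondrial median change in tenocyte-like, FAP-like, macrophage-like, B cell-like or pericyte-like cells. Without the EC-like clusters with haemoglobin genes among the leading genes, led by Cldn5 and by Hbb-bs, the EC-like nuclear median was -0.18. In macrophage-like cells the nuclear median of 0.03 became -0.02 with the median of all genes set to 1 and -0.04 as a mean over cells. The cause of the changes below was not tested unless given.

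In MuSC-like cells the nuclear median of -0.26 became 0.060 as a mean over cells, 0.013 with each cell thinned to 2000 UMIs and 0.11 without the 3 cells richest in nuclear members of each library, and the mitochondrial median of -0.05 became 0.017 as a mean over cells and 0.070 without the 3 cells. These settings give the deep DMSO cell less weight by construction. In EC-like cells the mitochondrial median of -0.01 became 0.021 with an mt- limit of 5% and 0.00504 without a limit. It became -0.066 with the median of all genes set to 1, -0.066 as a mean over cells and -0.064 after thinning. Without the EC-like clusters with haemoglobin genes among the leading genes it was -0.049. The mitochondrial median became 0.090 with the median of all genes set to 1, 0.18 as a mean over cells and 0.19 after thinning in FAP-like cells, 0.52 as a mean over cells in B cell-like cells, 0.46 as a mean over cells and 0.11 after thinning in pericyte-like cells, 0.27 with the limit of 5% in tenocyte-like cells, and 0.084 with the median set to 1, 0.17 without a limit and 0.11 after thinning in all cells.

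In SMC-like cells the nuclear share became 0.702% in DMSO and 0.766% in MVC with the limit of 5%, 1.07% and 1.13% without doublets and 0.823% and 0.893% without the 3 cells, and in MVC 0.977% without a limit and 0.978% as a mean over cells. The mitochondrial share became 2.21% and 2.30%, 5.32% and 4.05%, and 3.4996% and 3.11% in the same order, 3.897% and 4.16% without a limit, and in MVC 3.505% as a mean over cells. In SMC-like cells of DMSO the Cox4i2 share became 15.4% without doublets and 24.5% with the limit of 5%, and the Ndufa4l2 share 59.6% and 71.4%. In pericyte-like cells of MVC the Ndufa4l2 share became 96.9% without doublets.

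Some counts of members past the fold moved by more than 1.5 times. With the median of all genes set to 1, FAP-like cells had 6 nuclear members higher in place of 20, and EC-like cells 11 lower in place of 3. As a mean over cells, MuSC-like cells had 4 lower in place of 32, and pericyte-like cells 35 lower in place of 18. At a fold of 1.5, tenocyte-like cells had 9 higher in place of 27 and FAP-like cells 1 in place of 20. The share of all genes past the fold in each of these settings is not printed here. These counts therefore do not show whether the members moved apart from all genes. Thinning left out 447 DMSO and 981 MVC barcodes under 2000 UMIs. The settings that left out the 3 cells, the single cell, and cells rich in myofibre or haemoglobin genes were chosen after seeing the data. So was the setting without the EC-like clusters with haemoglobin genes among the leading genes. The count of members on 1 side of 1 without the single cell was also chosen then. Classes of about 100 cells limit the precision of single members, whose intervals there often spanned 1.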
